A study of Mus musculus with 4 samples.

Results

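Oxidative phosphorylation is carried out by 5 protein complexes of the inner mitochondrial membrane, and the genes described here are those that the nuclear genome supplies to them. They were chosen by gene symbol alone, as the Nduf genes of complex I, the Sdh genes of complex II, the Uqcr genes of complex III, the Cox4 to Cox8 genes of complex IV and the Atp5 genes of complex V, without Cox6a2 and without pseudogenes. The rule found 92 of the 32285 genes in the files, and no expression value entered it. By complex these were 36 subunits of complex I, 8 complex I assembly factors, 4 subunits of complex II, 8 of complex III, 19 of complex IV and 17 of complex V. Ndufa4 carries a complex I name but is now counted with complex IV. The 13 protein genes of the mitochondrial genome, which carry an mt- prefix, were set beside them.

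The data are 4 single-cell RNA-seq libraries of C57BL/6J mice aged 6 to 8 weeks. The mice had received MA9 leukemia cells, which carry a knock-in of the MLL-AF9 fusion and hold a doxycycline (DOX)-inducible hairpin. In 2 libraries this hairpin was a control (Ctrl) and in 2 it was directed against Prmt9 (shPrmt9), an arginine methyltransferase. All mice, controls included, drank DOX for 7 days before bone marrow (BM) or spleen was collected, which gave 1 library for each tissue and hairpin (named BM-Ctrl and BM-shPrmt9 for the marrow, and Spleen-Ctrl and Spleen-shPrmt9). The hairpin entered the mice with the transplanted cells, and the study describes a single representative mouse for each group. With 1 library a group there was no replicate check, so no test was run, and every interval given here is a 95% interval for counting error alone.

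Electrons from NADH enter the respiratory chain at complex I and those from succinate at complex II, which is also the succinate dehydrogenase of the citric acid cycle. Complex III hands them on to cytochrome c, complex IV passes them to oxygen, and complex V, the ATP synthase, uses the proton gradient that complexes I, III and IV build. Complex II is the only one made wholly from nuclear genes; in the others, nuclear subunits are assembled around proteins that the mitochondrial genome encodes. Acute myeloid leukemia cells are known for their reliance on oxidative phosphorylation, and mature neutrophils for few mitochondria and a reliance on glycolysis.

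The libraries held between 84009744 and 188030429 UMIs, and 8065 to 11174 cells each passed the filters. Levels are UMIs per 1e+06 UMIs (CPM), summed over all cells of a marker-gated class in a library. Over all kept cells Prmt9 itself had 10.5 CPM in BM-Ctrl against 6.89 CPM in BM-shPrmt9, and the spleens had 13.3 and 7.12 CPM in the same order. Marrow MA9-like cells held 767 UMIs of it with the control hairpin (10.9 CPM) and 337 UMIs with shPrmt9 (5.9 CPM), so the targeted transcript was lower in these shPrmt9 cells. The values over all kept cells also include cells without the hairpin, in numbers that differed between libraries. The spleens held only 29 and 23 MA9-like cells, and their B-like cells numbered 5783 in Ctrl and 1314 in shPrmt9. The bone marrow and spleen libraries differed in more than tissue: outside the MA9-like class, the Y-linked genes Ddx3y, Eif2s3y, Kdm5d and Uty together gave 0 UMIs in BM-Ctrl and 1 in BM-shPrmt9, but 15444 in Spleen-Ctrl and 11940 in Spleen-shPrmt9. These values are at odds with the study's description of 1 mouse for each group. Comparisons across the tissues carry this difference. Xist, which female cells express, was at 124 CPM in neutrophil-like and 253 CPM in erythroid-like cells of BM-shPrmt9, but at 0.1 CPM and 0 CPM in the same classes of BM-Ctrl, as in its MA9-like cells (0.1 CPM). For the myeloid and erythroid classes of bone marrow, a difference in the origin of the cells therefore cannot be told apart from the hairpin.

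MA9-like cells were gated on the Hoxa and Meis1 program of the fusion, and numbered 1105 in BM-Ctrl and 907 in BM-shPrmt9. All 6 of the leukemia markers kept out of that gate were detected in both. These were by far the deepest cells, with median UMIs of 61526 and 59152. The spleens gave 29 and 23 such cells, too few to be compared. A class was compared between the 2 libraries of a tissue where each held at least 50 cells, which gave 7 comparisons in bone marrow and 5 in spleen. Cells that passed several gates, which would include most doublets between types, numbered 380 to 890 a library and were left out.

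The sequences upstream of these genes are shown because the members share letters there that the symbol rule did not use. Of the 92 members, 75 had a promoter window in RefSeq (GRCm38.p6, 250 bases before to 50 after the start), and both strands were searched. The palindrome of NRF1, GCGCANGCGC, a factor known for driving respiratory chain genes, was present in 19 of the 75 windows (25.3%), against 5.19% of all 27025 genes with a window and 12.2% of the 9356 expressed in MA9-like cells. The ETS core CCGGAAG, which GABPA binds, was in 19 windows (25.3%, against 9.93% and 21.6%), and the YY1 core AAGATGGCG in 8 (10.7%, against 1.64% and 3.83%). At least 1 of these 3 was present in 39 windows (52%, against 15.1% and 33.4%). The ERR core TCAAGGTCA was in only 2 windows (2.67%, against 0.466% and 0.331%). Of the remaining motifs, the members and the 2 backgrounds gave TGACGTCA (CRE) in 5.33% of members against 2.03% and 3.70%, CCAAT in 45.3% against 41.1% and 43.6%, CACGTG in 6.67% against 8.09% and 12%, and TATAAA in 10.7% against 15.7% and 8.54%. The SP1 core GGGCGG was in 45.3% of member windows, against 38.2% of all genes and 67.9% of expressed genes. The one place where matches overlapped was an ETS and an SP1 match in Ndufs3. These are matches of letters, not measured binding.

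The 250 bases before the start of 5 members are given 5′ to 3′ on the gene's strand, in lower case, with matches to the NRF1, ETS or YY1 letters on either strand in capitals. Atp5k, Sdhd, Atp5g1 and Cox6b2 recur in the results, and Cox6a1 is shown as a window with several matches. Atp5k, subunit e of the ATP synthase, had one NRF1 match at -50 to -41 from the start. Cox6a1, the widespread isoform of a complex IV subunit, had NRF1 matches at -162 to -153 and -117 to -108 and an ETS match at -16 to -10. Sdhd, a membrane anchor of complex II, had an NRF1 match at -79 to -70 and an ETS match at -46 to -40. Atp5g1, one of 3 genes for the c-ring of the ATP synthase, and Cox6b2, a complex IV isoform best known from testis, had no match to these letters in this stretch.
Atp5k (chr5:108434400-108434649, minus strand): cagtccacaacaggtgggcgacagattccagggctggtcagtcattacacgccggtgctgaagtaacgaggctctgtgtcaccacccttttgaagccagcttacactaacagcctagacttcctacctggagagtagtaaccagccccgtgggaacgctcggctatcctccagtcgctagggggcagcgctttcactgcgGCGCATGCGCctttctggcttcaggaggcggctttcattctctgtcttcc
Cox6a1 (chr5:115348959-115349208, minus strand): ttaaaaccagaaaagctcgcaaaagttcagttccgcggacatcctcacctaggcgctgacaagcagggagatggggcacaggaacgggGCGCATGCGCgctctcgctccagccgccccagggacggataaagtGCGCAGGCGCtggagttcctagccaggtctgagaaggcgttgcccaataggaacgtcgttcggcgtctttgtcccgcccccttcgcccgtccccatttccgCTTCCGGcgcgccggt
Sdhd (chr9:50603850-50604099, minus strand): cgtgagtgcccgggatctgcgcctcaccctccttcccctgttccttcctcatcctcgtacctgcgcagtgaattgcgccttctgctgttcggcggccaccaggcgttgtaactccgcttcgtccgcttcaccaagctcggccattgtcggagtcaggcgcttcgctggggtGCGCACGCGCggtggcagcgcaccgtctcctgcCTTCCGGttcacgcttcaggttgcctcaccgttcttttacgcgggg
Atp5g1 (chr11:96075632-96075881, minus strand): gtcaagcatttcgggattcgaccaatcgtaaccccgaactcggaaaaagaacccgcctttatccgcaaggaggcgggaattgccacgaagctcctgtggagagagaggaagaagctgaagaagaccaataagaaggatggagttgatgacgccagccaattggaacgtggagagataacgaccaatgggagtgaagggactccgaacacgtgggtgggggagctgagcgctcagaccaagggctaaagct
Cox6b2 (chr7:4753095-4753344, minus strand): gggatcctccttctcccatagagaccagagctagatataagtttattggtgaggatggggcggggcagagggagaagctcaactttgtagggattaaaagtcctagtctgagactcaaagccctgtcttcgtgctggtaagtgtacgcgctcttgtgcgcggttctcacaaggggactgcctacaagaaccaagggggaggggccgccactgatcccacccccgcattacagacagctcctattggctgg

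The share of the transcriptome that the nuclear members took differed between classes. In bone marrow MA9-like cells stood highest and erythroid-like cells lowest of the compared classes in both libraries. In BM-Ctrl the summed level of the 92 genes was 29338 CPM in MA9-like cells, 21509 in monocyte/macrophage-like, 20149 in T-like, 20130 in B-like, 20084 in basophil-like, 11985 in neutrophil-like and 4180 CPM in erythroid-like cells. T-like, B-like and basophil-like cells lay within each other's counting intervals or next to them (T-like 19964 to 20335, B-like 20023 to 20237, basophil-like 19776 to 20395 CPM), while MA9-like and neutrophil-like cells lay well outside. In BM-shPrmt9 the order was MA9-like (32564 CPM), B-like (24073), monocyte/macrophage-like (23153), basophil-like (21086), T-like (19141), neutrophil-like (10051) and erythroid-like (4569). Haemoglobin took 67.0% and 60.9% of the UMIs of erythroid-like cells in bone marrow. With haemoglobin and mt- UMIs left out of the total, erythroid-like cells were at 12775 and 11797 CPM, next to the neutrophil-like 12125 and 10143 CPM and still below the T-like 20928 and 19813 CPM.

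In spleen the NK-like cells stood highest of the compared classes, at 28519 CPM in Ctrl and 26390 CPM in shPrmt9. T-like cells were at 18569 and 17130 CPM, B-like cells at 18455 and 24958 CPM, neutrophil-like cells at 10548 and 12261 CPM and erythroid-like cells at 2441 and 1889 CPM. Haemoglobin took 82.2% and 85.2% of the UMIs of these erythroid-like cells. With haemoglobin and mt- UMIs left out of the total they were at 14019 and 12939 CPM, above the neutrophil-like 10769 and 12467 CPM. NK-like over T-like cells gave a ratio of 1.54 in both spleens (1.52 to 1.55 and 1.53 to 1.56). More than 1.5-fold higher in NK-like cells were 49 of 85 members in Ctrl, where 22.2% of all genes were, and 46 of 86 in shPrmt9 (28.3%), while 2 (26.2%) and 1 (16.4%) were lower. T-like and B-like cells were level in both Ctrl libraries, with ratios of 1.001 in BM-Ctrl (0.990 to 1.01) and 1.006 in Spleen-Ctrl (1.002 to 1.01), and apart in both shPrmt9 libraries, at 0.795 and 0.686. In BM-Ctrl 2 of 87 members were more than 1.5-fold higher in T-like cells (all genes 13.5%) and 5 lower (24.8%), and in Spleen-Ctrl 1 was higher (14.8%) and 2 lower (19.9%). With shPrmt9 it was 0 of 82 higher (18.6%) and 20 lower (23%) in marrow, and 1 of 86 higher (22.8%) and 44 lower (24.3%) in spleen. The mt- genes did not order the classes in the same way. B-like cells had the highest mt- sum of the compared classes in each library, from 40834 to 64112 CPM, and neutrophil-like and erythroid-like cells the lowest.

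**Figure D1:**
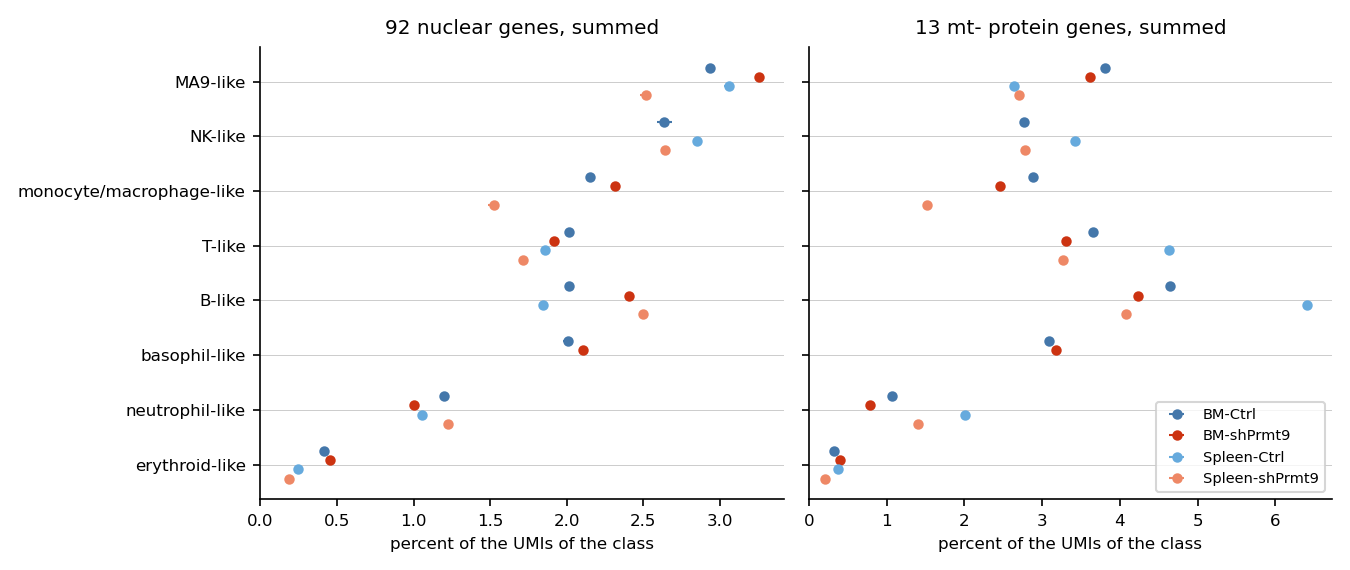
Summed level of the 92 nuclear oxidative phosphorylation genes and of the 13 mt- protein genes, as percent of the UMIs of a class. The compared classes are shown where a library held enough cells, 1 point a library, error bars 95% counting intervals. MA9-like cells of bone marrow reach 2.93% and 3.26% for the nuclear genes (29338 and 32564 CPM) and neutrophil-like cells 1.20% and 1.01% (11985 and 10051 CPM).

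Within a library, the gap between MA9-like and neutrophil-like cells was spread over nearly the whole set. The summed nuclear level was 2.45 times higher in MA9-like cells of BM-Ctrl (2.44 to 2.46) and 3.24 times higher in BM-shPrmt9 (3.23 to 3.25). In BM-Ctrl 77 of 87 members with enough UMIs were more than 1.5-fold higher in MA9-like cells and 2 lower, where 53.6% of all genes were higher and 23.4% lower. In BM-shPrmt9 it was 83 higher and 2 lower of 87, against 58.1% and 20.9% of all genes. Against T-like cells the ratios were smaller, at 1.46 and 1.7, with 43 of 86 (all genes 32%) and 52 of 86 (all genes 32.5%) members higher and 2 (31.3%) and 1 (31.5%) lower. Against monocyte/macrophage-like cells they were 1.36 and 1.41, with 32 of 88 (27.9%) and 27 of 86 (31.4%) members higher and 2 (31.5%) and 3 (29.5%) lower. Against B-like cells they were 1.46 and 1.35, with 39 of 87 (27.8%) and 18 of 86 (24.7%) members higher and 2 in each lower (34.2% and 32.5%).

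Atp5g1, at its highest of the compared bone marrow classes in MA9-like cells, had a wide range. It stood at 634 CPM in MA9-like cells of BM-Ctrl and 622 CPM in BM-shPrmt9, at 56.8 and 38.4 CPM in neutrophil-like cells, and between 176 and 262 CPM in the monocyte/macrophage-like, basophil-like, T-like and B-like cells of BM-Ctrl. The nearest values in mature classes were 352 CPM in B-like cells of BM-shPrmt9, 394 and 375 CPM in NK-like cells of the Ctrl and shPrmt9 spleens and 501 CPM in B-like cells of Spleen-shPrmt9. Its c-ring partners Atp5g2 (698 CPM in MA9-like, 133 CPM in neutrophil-like cells of BM-Ctrl) and Atp5g3 (227 and 59.9 CPM) had narrower gaps. Ndufaf7, a methyltransferase that modifies a core subunit of complex I during assembly, went the other way, with 20.1 CPM in MA9-like and 33.2 CPM in neutrophil-like cells.

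In MA9-like cells the nuclear members were close to level as a sum and uneven as single genes. Their summed level was 29338 CPM in BM-Ctrl and 32564 CPM in BM-shPrmt9, a ratio of 1.11 (1.108 to 1.112). Of 86 members tested (at least 50 UMIs over both libraries), 8 were more than 1.5-fold higher, against 19% of all 12125 genes tested, and 5 were more than 1.5-fold lower, against 15%. As shares of the members these are 9.30% and 5.81%, each below its background. The median log2 ratio was 0.09 over the members and 0.01 over all genes. The 13 mt- genes together were at 38084 CPM in Ctrl and 36224 CPM in shPrmt9, a ratio of 0.951.

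Complexes IV and V made up the difference in the sum. The summed ratio was 1.17 for complex IV and 1.19 for complex V, and close to 1 for complex I (1.03), complex II (1.03) and complex III (1.004). The 8 complex I assembly factors, which are not part of the finished enzyme, were together at 312 CPM in Ctrl and 265 CPM in shPrmt9, a ratio of 0.851, and one of them, Ndufaf6 (24.8 and 15.7 CPM), was past 1.5-fold.

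Within complex I, both directions were present. Ndufv2, a core subunit that holds an iron-sulfur cluster of the NADH-oxidizing arm, was at 140 CPM in BM-Ctrl and 69.7 CPM in BM-shPrmt9 (log2 ratio -1.01, -1.06 to -0.95), the lowest ratio of the named members. Its neighbours in the same arm were nearly level, with Ndufv1 at 68.7 and 66.8 CPM and Ndufs1 at 43.4 and 40.1 CPM. Ndufc2, a supernumerary subunit of the membrane arm, was also lower (432 and 279 CPM, log2 ratio -0.63). Ndufa5 (154 and 249 CPM, 0.70) and Ndufa3 (170 and 268 CPM, 0.66), again supernumerary subunits, were higher. Of the complex I genes with most UMIs over the series, Ndufa2 was at 524 and 390 CPM and Ndufa6 at 342 and 391 CPM, neither past 1.5-fold.

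All 4 genes of complex II stayed within 1.5-fold. Sdha, the flavoprotein that oxidizes succinate, was at 83.8 CPM in Ctrl and 79.8 CPM in shPrmt9. Sdhb, the iron-sulfur subunit, was at 92.2 and 102 CPM. The membrane anchors Sdhc and Sdhd were at 93.3 and 84.0 CPM and at 165 and 182 CPM.

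Complex III summed to a ratio of 1.004 with its small subunits on opposite sides. Uqcrq, the ubiquinone-binding subunit VII and the complex III gene with most UMIs, was at 1340 CPM in BM-Ctrl and 698 CPM in BM-shPrmt9 (log2 ratio -0.94, -0.96 to -0.92). Uqcrh, the hinge protein that contacts cytochrome c1, was at 390 and 604 CPM (0.63), and Uqcr11 was at 326 and 512 CPM (0.65). The core subunits Uqcrc1 (151 and 148 CPM) and Uqcrc2 (164 and 182 CPM) and the Rieske iron-sulfur protein Uqcrfs1 (207 and 203 CPM) differed little.

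In complexes IV and V the higher members were small peripheral subunits. Cox6c was at 723 CPM in BM-Ctrl and 1370 CPM in BM-shPrmt9 (log2 ratio 0.92, 0.91 to 0.94), and Ndufa4 was at 436 and 798 CPM (0.87, 0.85 to 0.89). Cox8a and Cox4i1, the complex IV genes with most UMIs, were level at 1281 and 1295 CPM and at 1141 and 1048 CPM. Atp5k had the highest ratio of all members, from 208 CPM to 447 CPM (1.10, 1.07 to 1.13). Atp5j2, the f subunit of the ATP synthase membrane part, was at 363 and 610 CPM (0.75). The catalytic core genes Atp5a1 (481 and 404 CPM) and Atp5b (763 and 739 CPM) did not pass 1.5-fold. Atp5e, with most UMIs in complex V, was at 759 and 1016 CPM (0.42), and Atp5l at 707 and 755 CPM (0.10).

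Neutrophil markers moved with this comparison. Summed over the 10 gate markers they were at 3093 CPM in MA9-like cells of BM-Ctrl and 11635 CPM in those of BM-shPrmt9, and their part in the member values was not tested. Letting cells with neutrophil markers into the MA9 gate, a choice made after seeing the data, gave 1291 and 1410 cells, a summed ratio of 1.06, and member ratios near those above (2.00 for Atp5k, 0.483 for Uqcrq and 0.461 for Ndufv2, each as shPrmt9 over Ctrl). In the few MA9-like cells of the spleens, which were not compared, Atp5k was at 454 CPM in Ctrl and 378 CPM in shPrmt9, Cox6c at 1035 and 910 CPM, Uqcrq at 722 and 607 CPM and Ndufv2 at 193 and 46.6 CPM. Neutrophil markers summed to 20839 and 76559 CPM in these spleen cells, and no direction is read from them.

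**Figure D2:**
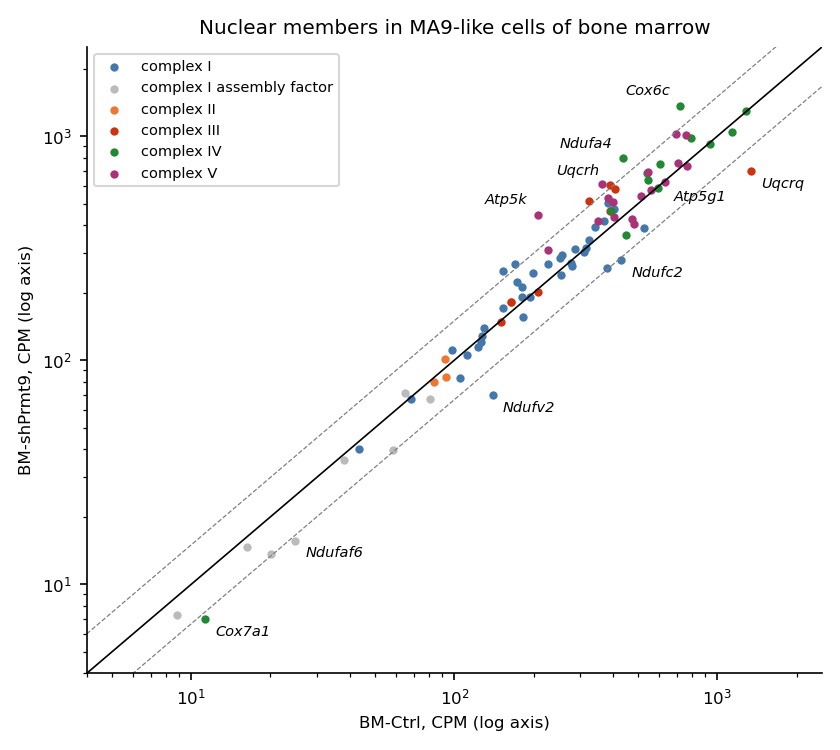
Level (CPM, log axes) of each tested member in MA9-like cells, BM-Ctrl across and BM-shPrmt9 upward, coloured by complex. Lines mark equality and 1.5-fold. Atp5k (log2 ratio 1.10), Cox6c (0.92) and Ndufa4 (0.87) lie farthest above the line of equality, and Ndufv2 (-1.01) and Uqcrq (-0.94) farthest below it.

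The mature classes of bone marrow shared their Ctrl and shPrmt9 libraries with the MA9-like cells, so the values stand side by side and are not separate evidence. In monocyte/macrophage-like cells (417 and 154 cells) the nuclear sum was 21509 CPM in Ctrl and 23153 CPM in shPrmt9, a ratio of 1.08, with 7 of 86 members higher (all genes 11.9%) and 3 lower (all genes 17.1%). With size factors the counts were 14 (14.6%) and 1 (13.6%). The median log2 ratio was 0.12 over the members and -0.10 over all genes. The assembly factor Ndufaf2 had the highest log2 ratio, 1.08 (11.9 and 25.2 CPM), on 67 and 65 UMIs. Of the members with at least 200 UMIs, Atp5k was highest again (179 and 307 CPM, log2 ratio 0.78), followed by Ndufa1, a small membrane subunit of complex I (134 and 215 CPM, 0.69), and Atp5j, coupling factor 6 of the ATP synthase (308 and 487 CPM, 0.66). Cox7a2l, counted here with complex IV, was lowest (471 and 290 CPM, -0.70). The other 2 lower members, Cox4i2 and Cox6b2, had at most 59 UMIs in a library. The summed ratio was 0.959 when only cells of 5000 to 10000 UMIs were used.

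In neutrophil-like cells (4199 and 6407 cells) the nuclear sum was 11985 CPM in Ctrl and 10051 CPM in shPrmt9, a ratio of 0.839. None of 87 members was more than 1.5-fold higher (all genes 4.85%) and 11 were lower (all genes 22.4%). The member median of -0.32 equalled that of all genes, -0.32, so relative to other genes the set was level, and dividing by median-of-ratios size factors instead of total UMIs turned the sum to 1.04 and the counts to 3 higher (9.41%) and 5 lower (8.51%). Neutrophil markers alone took 325802 CPM of the Ctrl and 409828 CPM of the shPrmt9 cells. Uqcrq was lowest of the named members (224 and 127 CPM, log2 ratio -0.82), then Ndufc2 (66.2 and 39.2 CPM, -0.76) and Ndufab1, the mitochondrial acyl carrier protein (47.2 and 29.3 CPM, -0.68). Ndufa1 (0.30), Cox6c (0.29) and Atp5k (90.3 and 109 CPM, 0.28) were the highest.

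Basophil-like cells (87 in each library) differed little, with 20084 and 21086 CPM, a ratio of 1.05 that became 0.985 in cells of 5000 to 10000 UMIs. In them 3 of 83 members were higher (all genes 7.14%), namely Uqcrb of complex III (142 and 251 CPM, log2 ratio 0.82), Ndufa1 (0.70) and Ndufa3 (0.67). The 1 lower member (all genes 7.79%) was Cox6b2. In T-like cells (309 and 198 cells) the sums were 20149 and 19141 CPM, a ratio of 0.95, with 0 of 83 members higher (all genes 8.43%) and 2 lower (all genes 7.77%). One of these was Ndufv3, an accessory subunit of the NADH-oxidizing arm (255 and 167 CPM, -0.60), beside Ndufaf7 on 46 and 20 UMIs. Ndufv3 was also the only member past 1.5-fold in spleen T-like cells.

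In erythroid-like cells (671 and 1197 cells) the sum was 4180 CPM in Ctrl and 4569 CPM in shPrmt9, a ratio of 1.09, and 8 of 79 members were higher (all genes 23.3%) and 0 lower (all genes 6.87%). The member median was 0.24 and that of all genes 0.18. With haemoglobin and mt- UMIs left out of the total the ratio turned to 0.923, and with size factors to 0.967, with 4 members higher (16.5%). Uqcr11 (20.4 and 35.1 CPM, log2 ratio 0.79), Atp5j (0.75) and Ndufb10 of complex I (0.74) were the highest of the named members.

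In B-like cells of bone marrow (1147 in Ctrl, 116 in shPrmt9) nearly all members were higher in shPrmt9, each by a little. The sum was 20130 CPM in Ctrl and 24073 CPM in shPrmt9, a ratio of 1.20, and 78 of 87 members were above their Ctrl level, but only Atp5k, Cox7a1 and Ndufaf5, 3 in all, passed 1.5-fold (all genes 8.74%) and 1, Cox6b2, was lower (all genes 12.9%). Few UMIs stood behind Ndufaf5 (37 in Ctrl and 13 in shPrmt9), Cox7a1 (55 and 20) and Cox6b2 (56 and 6). The log2 intervals of Ndufaf5 (-0.26 to 1.73) and Cox6b2 (-2.44 to 0.28) covered both directions. The member median was 0.28 and that of all genes -0.03. Atp5k was at 192 and 289 CPM (log2 ratio 0.59), and 80 of the 87 members lay above the median of all genes. Median UMIs per cell also differed, at 4794 in Ctrl and 9249 in shPrmt9, and in cells of 5000 to 10000 UMIs the ratio was 1.12.

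**Figure D3:**
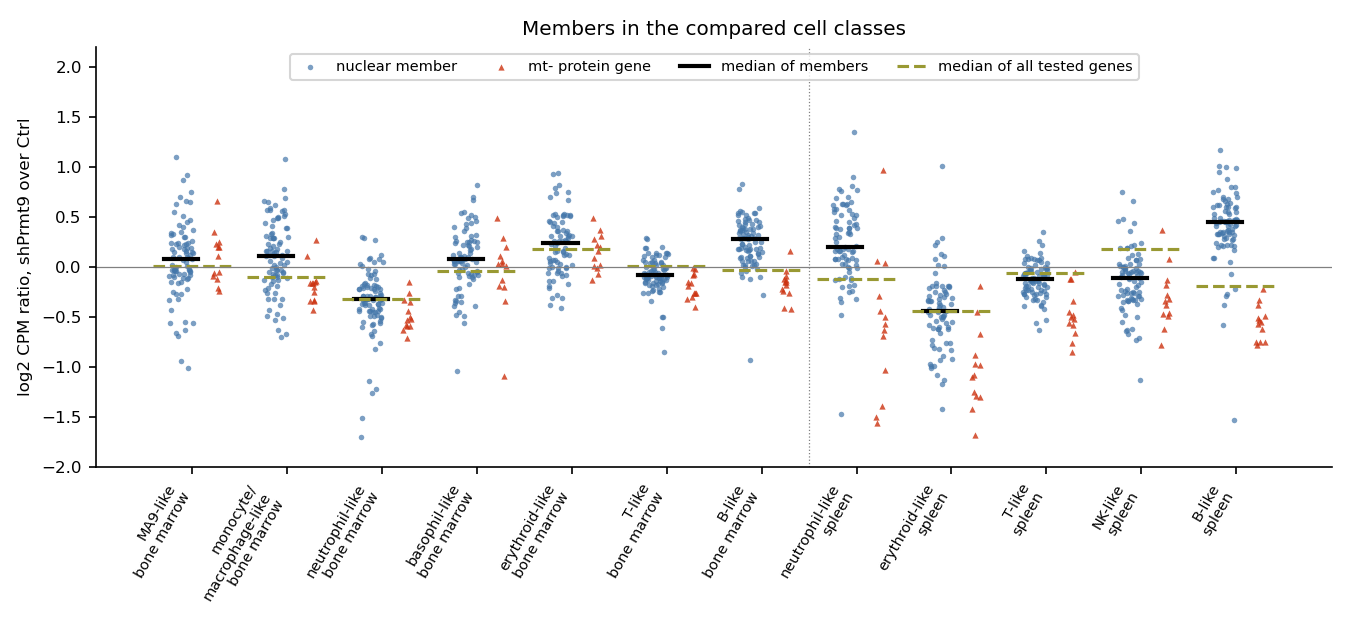
Log2 ratios (shPrmt9 over Ctrl, CPM) of the tested members in the 12 comparisons, 1 point a gene, with the members' median and the median of all tested genes. The member median lies farthest above that of all genes in spleen B-like cells (0.45 against -0.19) and lies below it in spleen NK-like cells (-0.11 against 0.18).

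Spleen B-like cells had the summed nuclear ratio farthest from 1 of the 12 comparisons when UMIs were pooled over cells. As a mean over cells the ratio was 1.28, and spleen erythroid-like cells, at 0.687, lay farther from 1. Their 92 genes summed to 18455 CPM in Spleen-Ctrl (5783 cells) and 24958 CPM in Spleen-shPrmt9 (1314 cells), a ratio of 1.35 (1.348 to 1.357). Of 87 members, 25 were more than 1.5-fold higher, against 11.7% of all 11690 genes, and 1, Cox7a1 on 47 and 9 UMIs, was lower, against 25.2%. With size factors 51 members were higher, against 18.2% of all genes. The member median was 0.45 and that of all genes -0.19, and 81 of 87 members lay above the latter. The 13 mt- genes went the opposite way, from 64112 CPM to 40834 CPM, a ratio of 0.637, so that the nuclear-to-mt- ratio was 2.12 times higher in shPrmt9.

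All complexes took part in this class, with summed ratios of 1.35 for complex I, 1.24 for complex II, 1.30 for complex III, 1.33 for complex IV, 1.40 for complex V and 1.32 for the assembly factors. In complex I, 10 of 36 members passed 1.5-fold, among them Ndufa12 (128 and 257 CPM, log2 ratio 1.0) and Ndufab1 (131 and 261 CPM, 0.99). In complex II Sdhd was higher (64.4 and 110 CPM, 0.77), whereas Sdha was at 101 and 82.1 CPM (-0.29). Uqcrq of complex III had the highest ratio (241 and 544 CPM, 1.17, 1.14 to 1.21), and its partner Uqcrh was at -0.38. Uqcrq was thus highest here and among the lowest in MA9-like cells. In complex V, Atp5g1 (249 and 501 CPM, 1.01) exceeded Atp5g2 (0.44) and Atp5g3 (0.38). The catalytic subunit Atp5b was at 382 and 666 CPM (0.80). Cox7a2l was lowest of the named members (314 and 210 CPM, -0.58).

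Cell depth and other cells' RNA differed in the same comparison. Median UMIs per B-like cell were 6439 in Spleen-Ctrl and 16426 in Spleen-shPrmt9, and haemoglobin took 0.0310% and 0.239% of UMIs. The B markers kept out of the gate were all detected in both libraries, but summed to 9992 CPM in Ctrl and 3613 CPM in shPrmt9. Over cells of 5000 to 10000 UMIs (3187 and 269 cells), a band chosen after seeing the data, the summed ratio was 1.08 and Ndufa12 was 1.11-fold, Atp5g1 1.18-fold and Uqcrq 1.38-fold higher. The summed ratio was thus nearer to 1 between B-like cells of like depth.

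T-like cells of the spleen (1974 and 2474 cells) differed little, with sums of 18569 and 17130 CPM, a ratio of 0.922. In them 0 of 86 members passed 1.5-fold upward (all genes 8.28%) and 1 downward (all genes 16.4%), Ndufv3 (151 and 97.7 CPM, log2 ratio -0.63). With size factors 0 were lower (14.1%). Sdhd had the highest ratio (51.9 and 66.2 CPM, 0.35). In NK-like cells (77 and 149 cells) the sums were 28519 and 26390 CPM, a ratio of 0.925, with 2 of 83 members higher (all genes 23.6%) and 7 lower (all genes 10.2%). With size factors 0 were higher (16.3%) and 12 lower (16.2%). Their median of -0.11 lay below that of all genes, 0.18. Uqcrq (633 and 1067 CPM, 0.75) and Cox7a2l (148 and 234 CPM, 0.66) were the 2 higher members, and Uqcr11 (393 and 237 CPM, -0.73) and Atp5g3 (322 and 197 CPM, -0.71) the lowest of those named.

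In spleen neutrophil-like cells (81 and 283 cells) the sum was 10548 CPM in Ctrl and 12261 CPM in shPrmt9, a ratio of 1.16, with 14 of 80 members higher (all genes 15.7%) and 1, Ndufaf7, lower (all genes 22.1%). With size factors 22 were higher (20%). The member median was 0.21 and that of all genes -0.12. Ndufa5 (21.3 and 54.1 CPM, log2 ratio 1.35) was highest, on 11 and 225 UMIs, followed by Ndufa8 (56.1 and 105 CPM, 0.90) and Cox7b (104 and 183 CPM, 0.81). Median UMIs per cell were 3576 in Ctrl and 14054 in shPrmt9, and too few Ctrl cells (10) lay between 5000 and 10000 UMIs for a comparison at like depth. In spleen erythroid-like cells (179 and 1627 cells) the sum was 2441 and 1889 CPM, a ratio of 0.774, with 1 of 76 members, Ndufb6, higher (all genes 12.9%) and 25 lower (all genes 39.9%). The member and all-gene medians were both -0.44. Haemoglobin took 82.2% and 85.2% of the UMIs, the ratio was 0.923 without haemoglobin and mt- UMIs in the total, and size factors turned it to 1.05. The counts then became 4 higher (all genes 21.5%) and 4 lower (17.5%).

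Atp5k and Uqcrq recurred at the ends of these comparisons. Atp5k had a log2 ratio above 0 in all 7 bone marrow classes, from 0.28 in neutrophil-like to 1.10 in MA9-like cells, and in spleen 0.55 in neutrophil-like, 0.10 in T-like and 0.60 in B-like cells but -0.32 in NK-like and -0.45 in erythroid-like cells. Uqcrq was below 0 in 6 of the 7 bone marrow classes, with B-like cells at 0.12, and in spleen stood at 0.30 in neutrophil-like, 0.22 in T-like, 0.75 in NK-like, 1.17 in B-like and -0.62 in erythroid-like cells. As a share of all UMIs, the Uqcrq level in Ctrl cells was lower in spleen than in bone marrow for the 4 classes compared in both tissues. In B-like cells, for instance, it was 241 CPM in spleen and 347 CPM in bone marrow. For erythroid-like cells (48.9 and 86.1 CPM) no direction is read from this, since haemoglobin took 82.2% of UMIs in Spleen-Ctrl and 67.0% in BM-Ctrl. All classes of a tissue share their 2 libraries.

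The summed level of the 13 mitochondrial genes was lower in shPrmt9 in 10 of the 12 comparisons. Single genes did not always follow the sum. In MA9-like cells only 6 of the 13 had a log2 ratio below 0, and their median was 0.11. The summed mt- ratio was below 1 in all 5 spleen classes, at 0.706 in T-like, 0.813 in NK-like, 0.637 in B-like, 0.697 in neutrophil-like and 0.544 in erythroid-like cells. In bone marrow it was 0.951 in MA9-like, 0.854 in monocyte/macrophage-like, 0.740 in neutrophil-like, 0.902 in T-like and 0.910 in B-like cells, but 1.03 in basophil-like and 1.24 in erythroid-like cells. The ratio of the nuclear sum was above 1 in 7 of 12 comparisons. With pooled UMIs the nuclear-to-mt- ratio was higher in shPrmt9 in 11 of 12, with erythroid-like cells of bone marrow (0.883) the exception. This count depended on the setting, and basophil-like cells were close to level (1.02). In cells of 5000 to 10000 UMIs the nuclear ratio lay below the mt- ratio in basophil-like and T-like cells of bone marrow too. As a mean over cells it did so in basophil-like cells. All classes of a tissue share their libraries. In bone marrow B-like cells of 5000 to 10000 UMIs the mt- ratio was 1.01.

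The mt- genes did not move as one in the spleen. In erythroid-like cells mt-Nd3, a complex I subunit, was at 83.2 CPM in Ctrl and 25.9 CPM in shPrmt9 (log2 ratio -1.68) and mt-Cytb, the cytochrome b of complex III, at 254 and 94.9 CPM (-1.42), whereas mt-Co1, the catalytic subunit of complex IV, was at 629 and 552 CPM (-0.19). Neutrophil-like cells had mt-Nd3 at 410 and 139 CPM (-1.56) and mt-Co1 at 4224 and 4351 CPM (0.04). Its mt-Nd6 value of 0.97 rests on 4 UMIs in Ctrl. In NK-like cells mt-Nd3 was at -0.78 and mt-Co1 at 0.37. B-like cells were more even, from -0.22 for mt-Atp8 to -0.78 for mt-Cytb. In MA9-like cells the range ran from -0.24 for mt-Cytb to 0.66 for mt-Atp8, a small subunit of the ATP synthase (63.7 and 101 CPM).

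**Figure D4:**
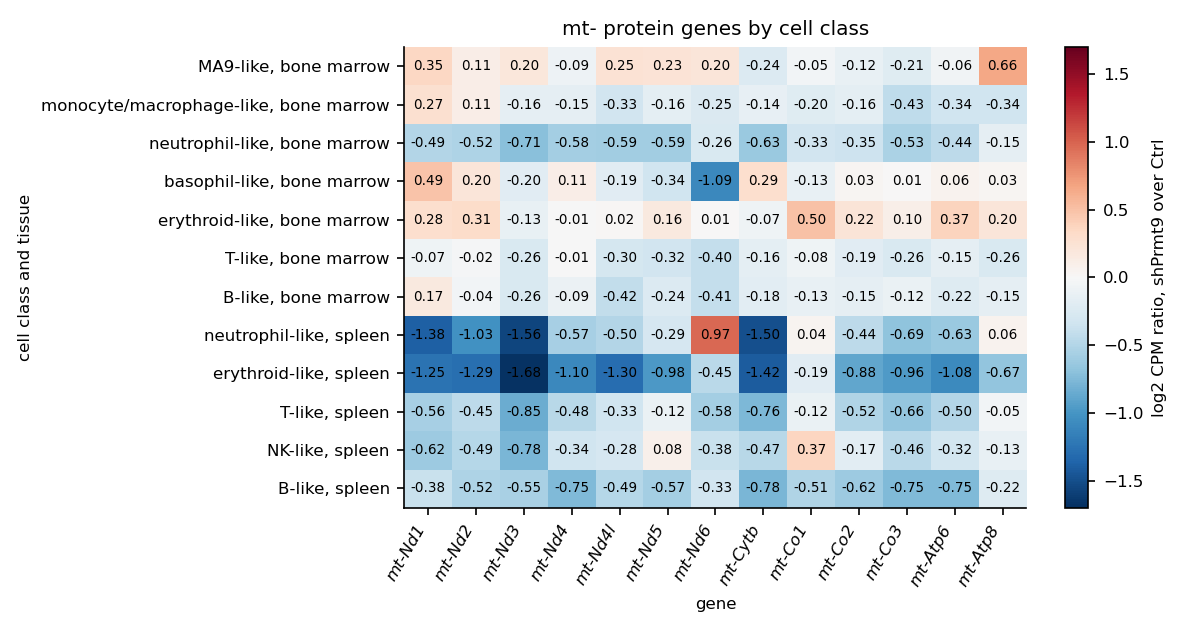
Log2 ratio (shPrmt9 over Ctrl, CPM) of each mt- protein gene in the 12 comparisons, as a colour scale centred on 0. The spleen rows are mostly negative, with mt-Nd3 at -1.68 in erythroid-like cells and mt-Co1 at -0.19 in the same cells. The mt-Nd6 value in spleen neutrophil-like cells rests on 4 UMIs in Ctrl.

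Tissue-restricted isoforms of complex IV were at or near 0 in most classes and marked a few. Cox4i2, the isoform known from lung and low oxygen, was at 10.5 CPM in monocyte/macrophage-like cells of BM-Ctrl and 6.6 CPM in those of BM-shPrmt9, and at 0.7 CPM or less in the other compared classes, while its partner Cox4i1 was at 1010 and 990 CPM in those monocyte/macrophage-like cells. Cox6b2 was at 50.7 CPM in basophil-like cells of BM-Ctrl (41 UMIs) and 24.8 CPM in BM-shPrmt9 (25 UMIs), and at 20.6 and 24.7 CPM in erythroid-like cells of bone marrow. It was at 29.6 and 35.3 CPM in spleen erythroid-like cells, where the summed nuclear level was lower than in bone marrow (2441 against 4180 CPM in Ctrl). Without haemoglobin and mt- UMIs in the total, that nuclear level was 14019 CPM in Spleen-Ctrl and 12775 CPM in BM-Ctrl. Cox6b2 was at 0.2 CPM in MA9-like cells of both bone marrow libraries. Cox7a1, the heart and muscle isoform, was at 11.2 CPM in MA9-like cells of BM-Ctrl (791 UMIs) and 7.0 CPM in BM-shPrmt9 (400 UMIs), a log2 ratio of -0.69. Of the 92 members, Cox8c had 0 UMIs in the whole series, and Cox7b2, Cox8b and Ndufa4l2 were the other 3 with fewer than 50.

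**Figure D5:**
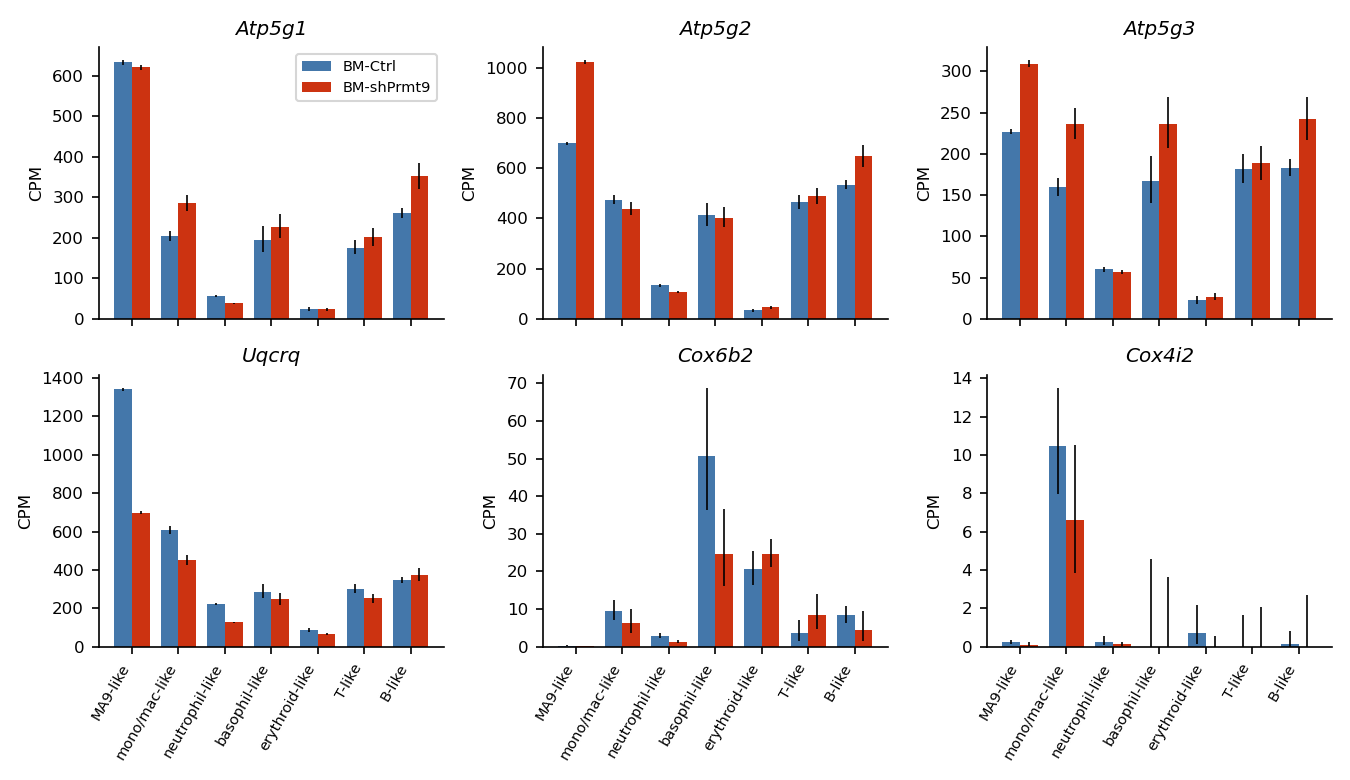
Level (CPM) of the c-ring genes Atp5g1, Atp5g2 and Atp5g3, of Uqcrq and of the restricted isoforms Cox6b2 and Cox4i2 in the classes compared in bone marrow, 1 bar a library, with 95% counting intervals. Cox6b2 stands out in basophil-like and erythroid-like cells (50.7 and 20.6 CPM in Ctrl), Cox4i2 in monocyte/macrophage-like cells (10.5 CPM) and Atp5g1 in MA9-like cells (634 CPM).

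Other genes of mitochondrial and energy metabolism, from lists set by name, were read in the same comparisons. In MA9-like cells 36 electron carriers and assembly factors outside the symbol rule had a median log2 ratio of -0.19, with 2 past 1.5-fold higher and 2 lower. Of all genes 19% were higher and 15% lower, the background for each list in these cells. The 17 citric acid cycle genes were at -0.02 (1 higher, 0 lower), the 15 tested genes of mitochondrial biogenesis at -0.22 (0 and 1) and the 78 mitochondrial ribosomal proteins at -0.07 (4 and 13). The 17 genes of glycolysis were at 0.27, with 5 higher and 2 lower. The 83 cytoplasmic ribosomal proteins were at -0.09 (1 and 2) and the 35 proteasome subunits at 0.14 (2 and 2), so the oxidative phosphorylation median of 0.09 lay inside the range of these lists.

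In spleen B-like cells the other lists of the mitochondrion were above the all-gene median of -0.19 too, and 11.7% of all genes were past 1.5-fold higher and 25.2% lower. The mitochondrial ribosomal proteins were at 0.54 with 34 of 78 higher and 0 lower, the electron carriers and assembly factors at 0.36 with 9 of 36 higher, and the citric acid cycle at 0.26 with 1 of 17 higher. Biogenesis genes were at -0.10, with 1 higher and 2 lower of 16. Glycolysis was at 0.43 (7 of 16 higher, 1 lower), the proteasome at 0.78 (30 of 35 higher) and the cytoplasmic ribosomal proteins at 0.18 (7 of 83 higher). Higher medians than that of all genes were thus shared by all 7 lists in this class.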

How the data were processed

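Single-cell suspensions of bone marrow or spleen were captured with 10x Genomics 3′ chemistry, which is stranded and counts each molecule once by its UMI. The deposited files hold raw counts (UMIs per gene and cell), made by the authors with Cell Ranger; the file headers name version 6.0.2 and the submitters' processing notes 6.1.1, with the mm10 build, and the annotation release is not given in the sources used here. Gene positions were read from a GRCm38 annotation. Reads that also match a processed pseudogene are usually not counted, so members with such copies may be understated.

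Cells with fewer than 200 genes or with more than 20% mt- UMIs were dropped (36 to 276 and 46 to 307 a library). Barcodes shared between any 2 libraries numbered 15 to 35. No cell annotation was used: 13 marker lists gated the cells. A marker counted where its UMIs exceeded 10% of the library's mean share for a cell of that depth (Poisson, p 0.01). A class needed 3 markers (2 for MA9, 5 for erythroid), with every other class at most at 60% of its share of markers. Neutrophil progenitor markers were an exception and did not limit the MA9 gate. The progenitor gate itself took cells left over by the other gates, without the 60% limit. The study's own clusters were not rebuilt, so class sizes may differ from them. Between 422 and 1659 cells a library passed no gate, and cells of several gates were dropped as possible doublets; no other doublet caller was run. Of cells that passed the neutrophil progenitor gate alone there were 402 in BM-Ctrl and 530 in BM-shPrmt9; they shared the leukemia markers and were not compared.

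Raw counts were summed per class and library and scaled to CPM of all UMIs of the class. Ratios are shPrmt9 over Ctrl with exact 95% intervals (Poisson for a level, binomial for a ratio), which cover counting error only; with 1 library a group no test was possible. A gene was tested against the fold with at least 50 UMIs over both libraries of a comparison and counted as past it beyond 1.5-fold. Because each molecule gives one 3′ tag, levels were not divided by gene length. The named genes were, for each complex, the 2 members with most UMIs, in each comparison the 3 highest and 3 lowest members with at least 200 UMIs, the 4 Sdh genes and the isoform families; others are named for their role after their values were seen. Gene lists, members and gates were chosen with earlier results of these data known, and gate limits were set on the data. Alternatives changed the scaling, filters, fold, gates, depth and averaging. The scripts were tested on simulated data. Analyses ran in Python 3.11.15 with numpy 2.4.6, scipy 1.17.1 and pandas 2.3.3.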

Additional observations from a re-analysis of the deposited data

Results flagged for a closer look

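With UMIs pooled over cells and scaled to their total, the results here went in opposite directions in the 2 tissues. Other scalings changed this for the nuclear sums. With size factors neutrophil-like cells were at 1.04 in bone marrow and 1.27 in spleen, and erythroid-like cells at 0.967 and 1.05, sides swapped. With haemoglobin and mt- UMIs left out of the total, erythroid-like cells were at 0.923 in both tissues. The difference between tissues was not tested, since each rests on 1 library a group. In neutrophil-like cells the summed nuclear level, shPrmt9 over Ctrl, was 0.839 in bone marrow and 1.16 in spleen. One member was past 1.5-fold in both tissues in opposite directions there, Ndufa12, with a log2 ratio of -0.64 in bone marrow and 0.70 in spleen, the latter on 19 UMIs in Ctrl. In erythroid-like cells the summed nuclear level was 1.09 in bone marrow and 0.774 in spleen, and the summed mt- level 1.24 and 0.544. Ndufs7 of complex I stood at 0.82 in bone marrow and -1.13 in spleen, and Uqcr11 of complex III at 0.79 and -0.93. In B-like cells Cox7a1 was at 0.83 in bone marrow and -1.53 in spleen, on 20 and 9 UMIs in the shPrmt9 libraries.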

How the results depend on the processing

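Values are given in one order of comparisons, bone marrow MA9-like, monocyte/macrophage-like, neutrophil-like, basophil-like, erythroid-like, T-like and B-like cells, then spleen neutrophil-like, erythroid-like, T-like, NK-like and B-like cells. The summed nuclear ratio was 1.11, 1.09, 0.838, 1.05, 1.09, 0.955, 1.19, 1.16, 0.787, 0.930, 0.928 and 1.36 with 1 more gate marker. It was 1.11, 1.07, 0.894, 1.01, 1.13, 0.913, 1.18, 1.21, 0.784, 0.923, 0.932 and 1.38 without the 5% of cells with most UMIs, and 1.11, 1.07, 0.837, 1.05, 0.923, 0.947, 1.19, 1.16, 0.923, 0.912, 0.921 and 1.32 with mt- and haemoglobin UMIs left out of the total. As a mean over cells it was 1.10, 1.06, 0.892, 1.01, 1.08, 0.914, 1.19, 1.25, 0.687, 0.921, 0.919 and 1.28, and with median-of-ratios size factors 1.10, 1.15, 1.04, 1.08, 0.967, 0.943, 1.22, 1.27, 1.05, 0.964, 0.819 and 1.54. Size factors turned the side of 1 in bone marrow neutrophil-like and in both erythroid-like comparisons, and the reduced total in bone marrow erythroid-like cells.

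The summed mt- ratio was 0.953, 0.927, 0.738, 1.03, 1.23, 0.900, 0.911, 0.679, 0.595, 0.706, 0.815 and 0.644 with 1 more gate marker, 0.957, 0.778, 0.865, 1.03, 1.35, 0.902, 0.944, 0.727, 0.531, 0.711, 0.806 and 0.643 without the cells of most UMIs, 0.968, 0.696, 0.869, 1.08, 1.34, 0.899, 0.932, 0.753, 0.455, 0.737, 0.833 and 0.703 as a mean over cells and 0.953, 0.853, 0.748, 0.95, 1.24, 0.910, 0.920, 0.702, 0.544, 0.709, 0.791 and 0.658 with no limit on the mt- share. That last choice put basophil-like cells below 1. The nuclear ratios moved by less than the counting interval without that limit.

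The other settings were chosen after seeing the data. In cells of 5000 to 10000 UMIs the summed nuclear ratio, without the bone marrow MA9-like (3 and 4 cells) and spleen neutrophil-like (10 and 46 cells) comparisons, which were not run, was 0.959, 0.811, 0.985, 1.05, 0.899, 1.12, 0.844, 0.926, 0.974 and 1.08, and the mt- ratio 0.599, 0.641, 1.07, 1.22, 0.910, 1.01, 0.582, 0.716, 0.746 and 0.790. The MA9 gate without its limit on neutrophil markers gave 1.06.

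Members past 2-fold numbered 1, 1, 0, 0, 0, 0, 0, 1, 1, 0, 0 and 2 higher and 1, 0, 5, 1, 0, 0, 0, 1, 5, 0, 1 and 1 lower (all genes 2.22% to 11.2% and 1.38% to 18.6%). With at least 1 UMI in each library those past 1.5-fold were 8, 8, 0, 4, 9, 1, 3, 14, 1, 1, 3 and 25 higher and 8, 3, 12, 2, 2, 2, 1, 2, 33, 1, 8 and 1 lower (all genes 8.46% to 28.4% and 14.9% to 54.3%). With at least 200 UMIs they were 8, 6, 0, 3, 4, 0, 1, 12, 1, 0, 2 and 25 higher and 5, 1, 6, 0, 0, 1, 0, 0, 12, 1, 4 and 0 lower (all genes 3.57% to 19.7% and 3.54% to 31.7%). With size factors they were 8, 14, 3, 4, 4, 0, 4, 22, 4, 0, 0 and 51 higher and 5, 1, 5, 1, 0, 2, 1, 1, 4, 0, 12 and 1 lower (all genes 8.1% to 21.5% and 6.64% to 17.6%). Spleen B-like cells went from 25 to 51 higher (all genes 11.7% and 18.2%) and spleen erythroid-like cells from 25 to 4 lower (39.9% and 17.5%).

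For MA9-like over neutrophil-like cells the reduced total gave 2.52 with the control hairpin and 3.33 with shPrmt9, and the mean over cells 2.76 and 3.39. T-like over B-like cells was 0.987 in Spleen-Ctrl and 0.681 in Spleen-shPrmt9 with the reduced total, and 0.724 in the latter as a mean over cells. The cause of these shifts was not tested. No paired analysis was possible because each group holds 1 library and no result comes from a test, and for the same reason no replicate could be left out. Depth limits members with few UMIs, above all in erythroid-like, basophil-like, spleen NK-like and spleen neutrophil-like cells.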

Other observations

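Among other gene groups, mitochondrial ribosomal proteins, which translate the 13 mt- genes, were past 1.5-fold lower for 23 of 78 in neutrophil-like cells of bone marrow (median log2 ratio -0.38, all genes -0.32, of which 22.4% were lower) and higher for 21 of 62 in spleen neutrophil-like cells (0.33, all genes -0.12, of which 15.7% were higher). In spleen NK-like cells 13 of 75 were lower and 1 was higher (-0.30, all genes 0.18, of which 10.2% were lower and 23.6% higher). Cytoplasmic ribosomal proteins were lower for 25 of 83 in neutrophil-like cells of bone marrow (-0.49) and for 16 of 82 in spleen NK-like cells (-0.47), beside the same shares and medians of all genes. Glycolysis genes were higher for 9 of 16 in bone marrow B-like cells and lower for 2 (median 0.62, all genes -0.03, of which 8.74% were higher and 12.9% lower). In monocyte/macrophage-like cells of bone marrow 5 of 15 were higher and 0 lower (0.17, all genes -0.10, of which 11.9% were higher and 17.1% lower).

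Cells that passed the neutrophil progenitor gate alone had nuclear levels near those of MA9-like cells, at 28017 CPM in BM-Ctrl and 31462 CPM in BM-shPrmt9, with Atp5k at 202 and 421 CPM and Uqcrq at 1089 and 673 CPM. Plasmacytoid dendritic-like cells were at 23285 CPM (116 cells) and 21500 CPM (25 cells), and NK-like cells of bone marrow at 26369 CPM (41 cells) and 28162 CPM (8 cells). These classes were too small or too mixed for a comparison.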
